A study of Rattus norvegicus with 9 samples.

Results

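The genes described here encode the glucose transporters, the enzymes of glycolysis, the lactate and pyruvate dehydrogenase steps that follow it, and the sensors and responsive genes of the hypoxia pathway. Gnpda1, a deaminase that returns amino sugars to glycolysis, was listed with them under a role of its own. The set was defined by gene name, but it was drawn up with earlier results of these data known. Its shares of calls below, set beside those of all genes, are thus descriptions. Of 42 genes listed, 39 had a probe set that the array annotation assigns to that gene alone, and each was represented by its probe set with the highest mean. Hk2 and Pgam2 lay below the filter on low values, with intensities of 6.03 to 8.41 and 4.18 to 6.13 over the 9 arrays, where the threshold of each array was 15.2 to 16.2. The other 37 were tested among 10973 genes. Gapdh and Pkm share their probe sets with a second gene symbol and Dlat had none, so these 3 genes were not analysed here.

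Uterine tissue of female rats was measured on 9 Affymetrix arrays, 3 in each of 3 groups. Control rats (arrays 41, 42 and 43) were left without treatment. In model rats (21, 22 and 23) ovulation was induced by PMSG (pregnant mare serum gonadotropin), which drives follicle growth, given intraperitoneally at 0.5 U per rat, and 48 h later by an equal dose of human chorionic gonadotropin, a trigger of ovulation. Treatment rats (31, 32 and 33) were induced in the same way and also received electroacupuncture, in which needles carry a weak current, at the Guanyuan and Sanyinjiao points for 15 min a session on 7 successive days before induction and during it. The labels give no strain, age, cycle stage or hour of tissue collection, and of 18 rats, 6 a group, they do not say which animals the arrays came from. Any p below thus reflects how far these arrays differ among themselves, and that spread may be partly technical.

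Glycolysis splits glucose, taken up by transporters of the Slc2a family, into pyruvate. Pyruvate is either reduced to lactate by lactate dehydrogenase and exported by monocarboxylate transporters of the Slc16a family, or enters mitochondria, where the pyruvate dehydrogenase complex turns it into acetyl-CoA unless pyruvate dehydrogenase kinases switch that complex off. When oxygen is scarce, prolyl hydroxylases of the Egln family stop marking the hypoxia-inducible factors Hif1a and Epas1 for breakdown, and these factors raise the transcription of many glycolytic genes. In the uterus, glucose uptake and lactate output are known to follow oestrogen and progesterone, and decidualizing stroma is known for its high glucose use.

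The controls were not alike. Control 43 correlated with controls 41 and 42 at r = 0.9029 and 0.9283 over log2 intensities of probe sets, whereas those 2 correlated at 0.981 and control 43 with model 21 at 0.9739. All 15 epithelial markers with a probe set, all 12 of smooth muscle and all 11 of stroma passed the filter. The intensities of the epithelial markers summed to 20462.0 and 15020.5 in controls 41 and 42 and to 4998.9 in control 43, against 3952.0 to 5163.1 in model and 4403.7 to 6788.0 in treatment arrays. The markers did not move alike. In controls 41, 42 and 43 Krt8 measured 4150.4, 3006.0 and 233.8 and Krt19 4100.2, 3035.8 and 162.4, but Epcam 1632.4, 1422.6 and 1310.3. Cldn3, at 512.9, 459.1 and 1047.2, and Cldn4, at 83.5, 47.6 and 133.7, were higher in control 43. Genes that oestrogen induces in the rat uterus summed to 10176.9 and 9977.0 in controls 41 and 42, to 2628.4 in control 43, and to 2511.2 to 6075.3 and 6314.4 to 8203.4 in the other groups. C3, at 5116.2, 4301.4 and 13.2 in controls 41, 42 and 43, carried much of that sum. Among the controls, Fos, Greb1, Lcn2 and S100g were also lowest in control 43. Igf1, at 261.5, 348.1 and 1197.2, and Vegfa, at 99.9, 92.3 and 141.6, went the other way. In Pgr and Ckb control 43 lay between the other controls. In the fit to all 9 arrays, control 43 included, no epithelial, stromal or smooth muscle marker passed in any comparison. Krt19 measured 134.3 to 610.4 and Cldn3 215.1 to 806.3 in the 6 induced arrays. Of 12 endothelial markers 1 passed, Sox7, in treatment against control. The endothelial sums were 1431.3, 1556.3 and 2791.9 in controls 41, 42 and 43, 1560.5 to 1960.3 in model arrays and 1483.4, 752.1 and 1333.5 in treatment arrays 31, 32 and 33. Stromal sums were 7971.4, 10354.7 and 16045.4 in controls 41, 42 and 43, 11227.9 to 14953.3 in model and 8136.4 to 13194.9 in treatment arrays. Smooth muscle sums were 16977.2 to 26763.5 in control, 26512.0 to 31210.3 in model and 25422.5 to 30793.7 in treatment arrays. Of 11 skeletal muscle markers, which bear on Eno3 and Pfkm, 6 were tested, with sums of 1722.3 to 2987.4 over the 9 arrays, Acta1 at 632.0 to 2075.7 and Myh1 at 719.0 to 1168.8. The other 5, Ckm, Myh2, Myh4, Actn3 and Pvalb, lay below the filter. In whole tissue, fewer cells of a type and less RNA in each cell cannot be told apart. The part of these marker levels in the results below was not tested. Calls of the genes and lists below that changed without control 43 are given with their values or named in the text. Marker calls without control 43 are not given, so the lack of marker calls does not show that cell content was unchanged.

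Hypoxia-inducible factors bind the letters ACGTG or GCGTG, so the promoter windows of the genes tested were searched for both words on both strands. The RefSeq windows (GRCr8, from 250 bases before to 50 after a gene's start) covered 33 of the 37 genes, and Slc2a3 and Pgk1 were among the 4 without one. At least 1 window held a match in 25 of these 33 genes, or 75.8%, and in 44.6% of all genes in the table. The median GC content of the windows was 63.3% for these genes and 51.7% for all, and its part in that difference was not tested. The windows of Pdha1, Pfkfb3 and Pdk2 are shown as examples that hold a match, each from a gene described below. Gnpda1, whose p was the smallest of the set, had 4 matches in its window, CACGTG among them, and that window is not shown. Capitals mark the matches.
Pdha1, GRCr8, chrX:38508908-38509207, plus strand: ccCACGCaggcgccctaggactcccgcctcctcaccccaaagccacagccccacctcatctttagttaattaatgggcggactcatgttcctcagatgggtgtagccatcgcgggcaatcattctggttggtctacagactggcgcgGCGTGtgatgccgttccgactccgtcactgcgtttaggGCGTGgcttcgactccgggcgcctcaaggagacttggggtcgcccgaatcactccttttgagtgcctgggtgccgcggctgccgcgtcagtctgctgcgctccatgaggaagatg
Pfkfb3, GRCr8, chr17:71944683-71944982, plus strand: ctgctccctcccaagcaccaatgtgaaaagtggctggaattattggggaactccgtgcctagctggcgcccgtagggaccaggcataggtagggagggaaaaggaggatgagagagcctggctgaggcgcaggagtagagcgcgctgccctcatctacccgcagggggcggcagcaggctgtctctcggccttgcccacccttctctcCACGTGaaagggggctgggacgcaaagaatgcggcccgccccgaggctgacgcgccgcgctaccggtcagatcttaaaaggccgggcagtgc
Pdk2, GRCr8, chr10:80483863-80484162, minus strand: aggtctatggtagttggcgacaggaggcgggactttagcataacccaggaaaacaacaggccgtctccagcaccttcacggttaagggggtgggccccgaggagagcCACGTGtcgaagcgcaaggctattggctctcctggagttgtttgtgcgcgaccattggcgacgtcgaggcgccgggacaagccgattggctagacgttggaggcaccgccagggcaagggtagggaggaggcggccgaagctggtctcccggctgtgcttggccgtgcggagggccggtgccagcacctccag
In Pdha1 every match was GCGTG, once on the opposite strand. In Pfkfb3 and Pdk2 the only matches were ACGTG on both strands of CACGTG, a palindrome that is also the E-box read by other families of factors. A match describes the letters of a window and does not show that a factor bound there.

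In treatment against control arrays, transcripts of Gnpda1 and Pdha1 rose and those of Slc2a3 fell (adjusted p under 0.05 by limma, over all genes). These are 3 of the 37 genes, 2 higher and 1 lower, where 0.51% of all genes tested passed, 0.173% higher and 0.337% lower. Over all genes the calls were 19 higher and 37 lower, and 27 higher and 28 lower after quantile normalization, with the 3 genes called in both. In model against control arrays 0 of the 37 passed by limma, where 0.0273% of all genes did, and at an unadjusted p under 0.05 there were 15 of 37 (40.5%) beside 12.4% of all genes. The unadjusted count in treatment against control was 11 (29.7%) beside 17.4%. The median log2 fold change of the 37 genes was -0.038 in model and 0.034 in treatment against control, next to 0.016 and -0.037 for all genes. Positive and negative values numbered 17 and 20 in model and 20 and 17 in treatment against control. Over all genes they numbered 5874 and 5099 in model and 4630 and 6343 in treatment against control. The groups did not overlap for 10 of the 37 genes in each comparison (27.0%), beside 14.5% of all genes in model and 23.3% in treatment against control. The 2 comparisons share the control arrays.

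The calls depended on single arrays. The 3 calls of treatment against control became 0 when control 41, control 42, treatment 31, treatment 32 or treatment 33 was left out, 1 (Gnpda1) without model 22, and 6 without control 43. In model against control the count was 10 without control 43 and 0 without any other array. With only the 6 compared arrays fitted, Gnpda1 alone passed in treatment against control.

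**Figure D1:**
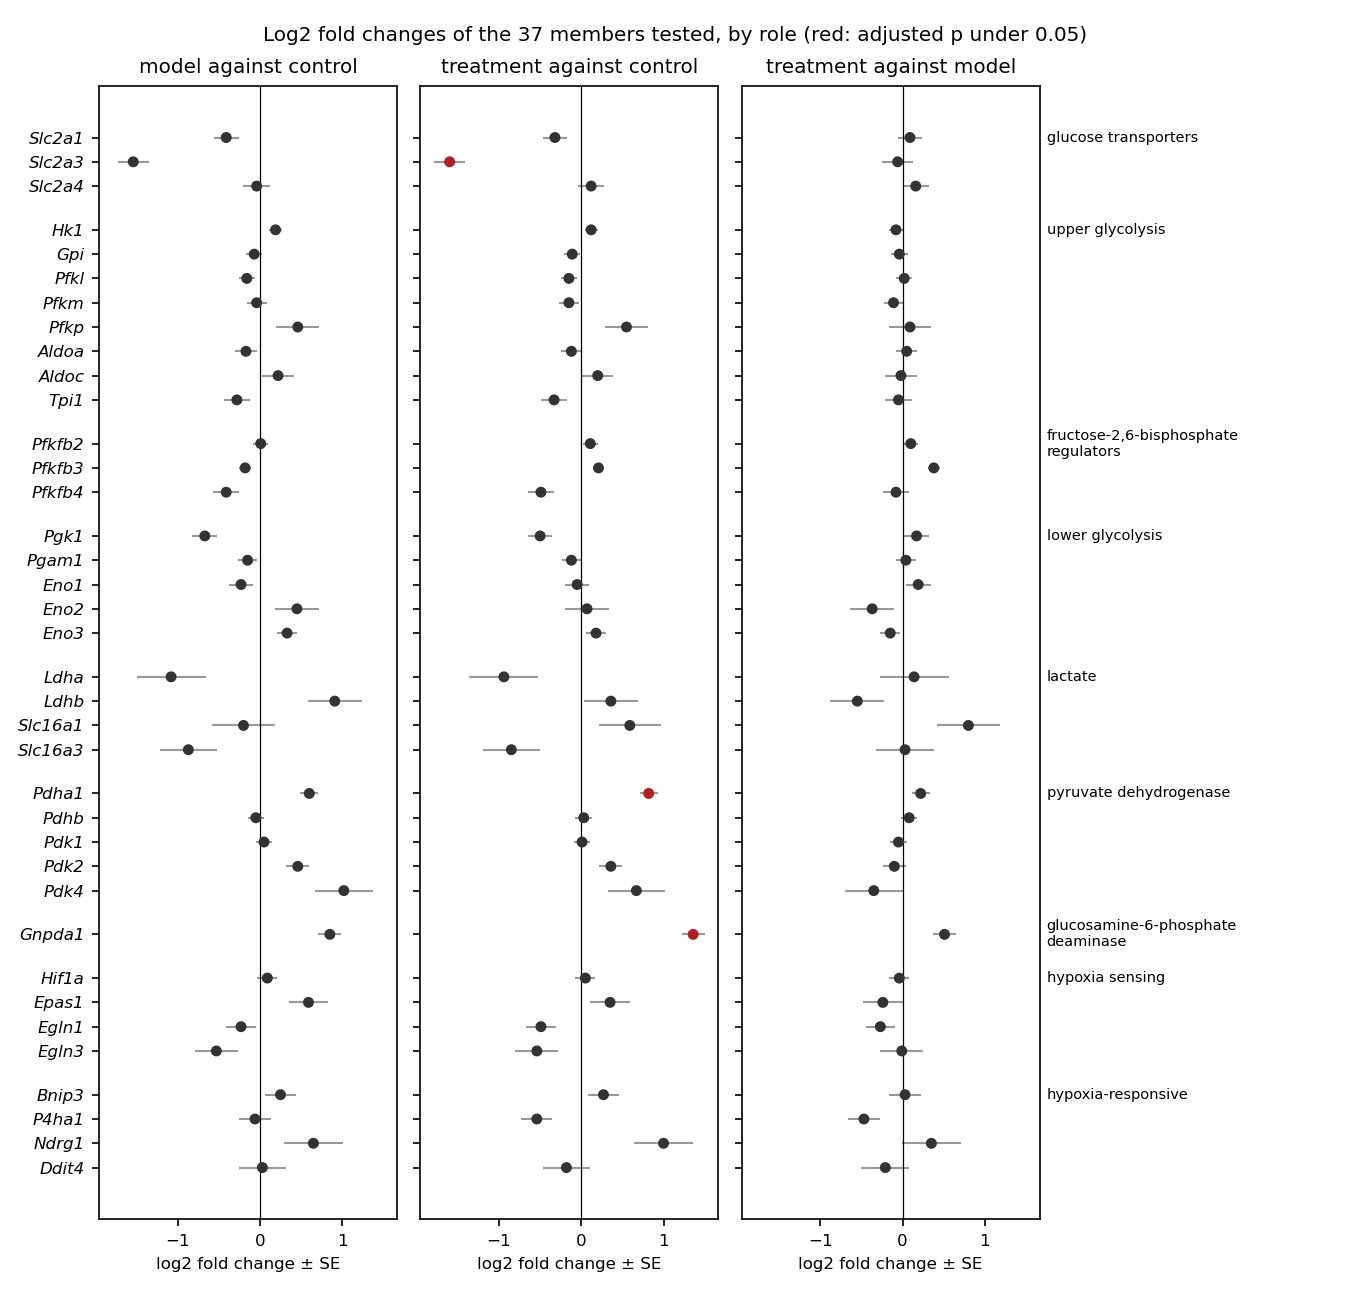
Log2 fold changes (x axis, on log2(intensity + 16)) with their standard errors for the 37 genes tested, by role (y axis), in the 3 comparisons of limma's fit to 9 arrays. Red points passed at an adjusted p under 0.05: Slc2a3, at -1.60, Pdha1, at 0.82, and Gnpda1, at 1.36, all in treatment against control.

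Glucose transporters. Slc2a3, a transporter with high affinity for glucose, measured 258.4, 233.3 and 144.9 in controls 41, 42 and 43 (intensity). It measured 68.3, 56.9 and 57.3 in the model arrays and 61.7, 62.7 and 48.8 in the treatment arrays. Every induced array lay below every control, control 43 included, and the model and treatment arrays overlapped. On the log2 scale the group values were 7.80 ± 0.41 in control, 6.26 ± 0.12 in model and 6.20 ± 0.16 in treatment arrays (SD, n = 3). Slc2a3 fell by 1.60 in treatment against control (SE 0.19, limma adjusted p = 0.0246), and its log2 fold change in model against control was -1.54 (SE 0.19, adjusted p = 0.0663). Leaving out single arrays moved the treatment value between -1.83 and -1.45, and it passed in 3 of the 9 such fits (control 43, model 21 or model 23 left out). A second Slc2a3 probe set lay below the filter, at 4.55 to 7.04 in all arrays.

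Slc2a1, the basal glucose transporter of most tissues, measured 224.4, 171.8 and 147.4 in controls, 130.4, 123.0 and 138.9 in model and 125.7, 163.6 and 133.7 in treatment arrays. Model arrays lay below all controls, while treatment 32 lay above control 43. The log2 fold changes were -0.41 (SE 0.15, limma adjusted p = 0.356) and -0.32 (SE 0.15, adjusted p = 0.322). Without control 43 the model value passed (-0.54, adjusted p = 0.0479). Slc2a4, the insulin-responsive transporter of muscle and fat, differed by -0.04 in model and 0.12 in treatment against control, with 25.3 in control 43 as its lowest intensity and 48.0 in control 42 as its highest. Its second probe set had the same 2 arrays as its extremes, at 21.0 and 55.4.

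Upper glycolysis. None of the 8 genes tested from hexokinase to triosephosphate isomerase passed in any comparison, and their log2 fold changes ran from -0.28 to 0.46 in model and from -0.33 to 0.55 in treatment against control. Aldoa, the main muscle-type aldolase, measured 2012.3 and 2076.6 in controls 41 and 42 and 1492.2 to 1794.5 in the other 7 arrays, among which control 43 was at 1519.0. Tpi1, triosephosphate isomerase, measured 590.1 and 709.1 in controls 41 and 42 and 419.2 to 541.4 in the other 7. Hk1, which phosphorylates glucose, went the other way, at 190.1 and 203.9 in controls 41 and 42 and 215.7 to 246.1 elsewhere. Pfkp, the platelet-type phosphofructokinase, measured 242.6, 427.4 and 293.0 in controls, 377.7 to 530.4 in model and 342.7 to 621.5 in treatment arrays, with overlap between all groups. Gpi, glucose-6-phosphate isomerase, stayed within 295.0 to 381.7, and Pfkm, the muscle-type phosphofructokinase, within 90.8 to 127.4.

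The bifunctional enzymes of the Pfkfb family set the level of fructose-2,6-bisphosphate, the strongest activator of phosphofructokinase. Pfkfb4 measured 68.4, 63.7 and 47.8 in controls, 46.2, 31.7 and 46.1 in model and 29.2, 43.6 and 41.7 in treatment arrays. All 6 induced arrays lay below the controls, model 21 by a small margin from control 43. Neither comparison passed, at -0.41 (SE 0.16, limma adjusted p = 0.373) and -0.49 (SE 0.16, adjusted p = 0.196). Pfkfb2 was dim, at 19.4 to 28.1, and differed by 0.01 and 0.11.

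Lower glycolysis. Pgk1 encodes phosphoglycerate kinase, the first step of the pathway that yields ATP. It measured 691.6, 717.7 and 666.0 in controls, 417.1, 446.3 and 422.5 in model and 501.2, 603.4 and 375.5 in treatment arrays. The controls lay close together and above all 6 induced arrays, and the treatment arrays spread widest. The log2 group values were 9.47 ± 0.05, 8.80 ± 0.05 and 8.97 ± 0.33 (SD, n = 3), with log2 fold changes of -0.67 (SE 0.15, limma adjusted p = 0.199) and -0.50 (SE 0.15, adjusted p = 0.174). A second Pgk1 probe set repeated the order, at 398.1 to 408.4 in controls, 242.0 to 257.0 in model and 239.0 to 355.8 in treatment arrays. Without control 43 the probe set of highest mean, by which Pgk1 was represented, passed in model against control (-0.70, limma adjusted p = 0.0395).

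Pgam1, phosphoglycerate mutase, stayed within 943.6 to 1262.4 and Eno1, the common enolase, within 398.1 to 605.0, and neither passed. Eno1 differed by -0.05 in treatment against control, and by 0.03 after quantile normalization. Eno2, the neuronal enolase, measured 52.5, 99.8 and 128.8 in controls and 80.8 to 152.9 in induced arrays. Eno3, the muscle enolase, was dim, at 17.4, 24.5 and 27.8 in controls and 26.1 to 38.6 in induced arrays, and did not pass (0.33 and 0.18).

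**Figure D2:**
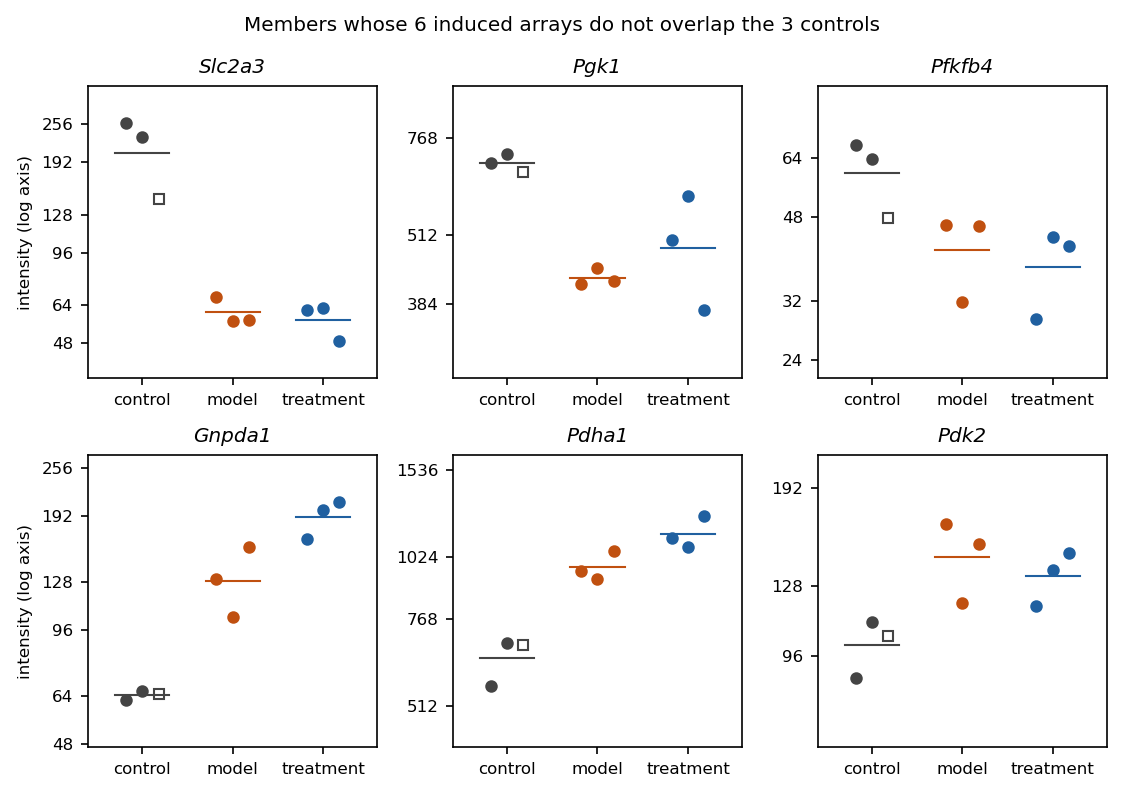
Intensities (y axis, log scale) of the 6 genes whose model and treatment arrays together did not overlap the controls, by group (x axis); points are single arrays, the open square is control 43, and lines are group means on the log2(intensity + 16) scale. Slc2a3, Pgk1 and Pfkfb4 lie lower in all induced arrays and Gnpda1, Pdha1 and Pdk2 higher, and in Gnpda1 the controls span 62.6 to 66.0.

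These 6 genes, Slc2a3, Pgk1, Pfkfb4, Gnpda1, Pdha1 and Pdk2, are 16.2% of the 37, and 6.26% of all genes tested had induced arrays that did not overlap the controls, 2.58% above and 3.68% below. They were picked from the data for this separation, which is a description and not a further test.

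Lactate. The genes of lactate production and transport had the widest spread among controls. Ldha, the lactate dehydrogenase subunit that favours lactate formation, measured 3090.2 and 2636.5 in controls 41 and 42, but 878.6 in control 43, 845.8, 1028.0 and 854.9 in model and 903.5, 1274.9 and 866.8 in treatment arrays. Slc16a3, the exporter of lactate in glycolytic cells, had the same order, at 87.4 and 97.6 in controls 41 and 42, 23.1 in control 43 and 23.2 to 29.6 in the 6 induced arrays. Control 43 lay within or below the range of the induced arrays for both genes. With all controls the log2 fold changes of Ldha were -1.08 (SE 0.42, limma adjusted p = 0.371) and -0.94 (SE 0.42, adjusted p = 0.296), and those of Slc16a3 were -0.87 (SE 0.35, adjusted p = 0.377) and -0.85 (SE 0.35, adjusted p = 0.268). Without control 43 the values of Ldha were -1.64 (adjusted p = 0.00385) and -1.50 (adjusted p = 0.00492), and those of Slc16a3 -1.37 (adjusted p = 0.000389) and -1.34 (adjusted p = 0.000429).

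Ldhb, the subunit that favours lactate oxidation, stood opposite to Ldha, at 262.4 and 402.6 in controls 41 and 42 and 791.8 in control 43. It measured 746.5, 1004.4 and 779.2 in model and 627.6, 550.2 and 528.7 in treatment arrays, so that the 2 induced groups did not overlap. Against all controls it differed by 0.91 in model (SE 0.33, limma adjusted p = 0.355) and by 0.36 in treatment arrays (SE 0.33, adjusted p = 0.611). Without control 43 the model value was 1.32 (adjusted p = 0.00933) and the treatment value 0.77 (adjusted p = 0.0604). Slc16a1, the transporter that carries lactate and pyruvate in either direction, measured 168.7, 324.8 and 96.6 in controls, 200.9, 161.9 and 104.3 in model and 263.8, 317.8 and 243.8 in treatment arrays. Its controls alone spanned both other groups, and it did not pass (-0.20 and 0.59). The epithelial and oestrogen-induced sums given above were, like Ldha and Slc16a3, high in controls 41 and 42 and low in control 43, though not for every gene summed. The stromal sum, like Ldhb, was lowest in control 41 and highest in control 43 among the controls. The part of these sums in the values of Ldha, Slc16a3 and Ldhb was not tested.

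**Figure D3:**
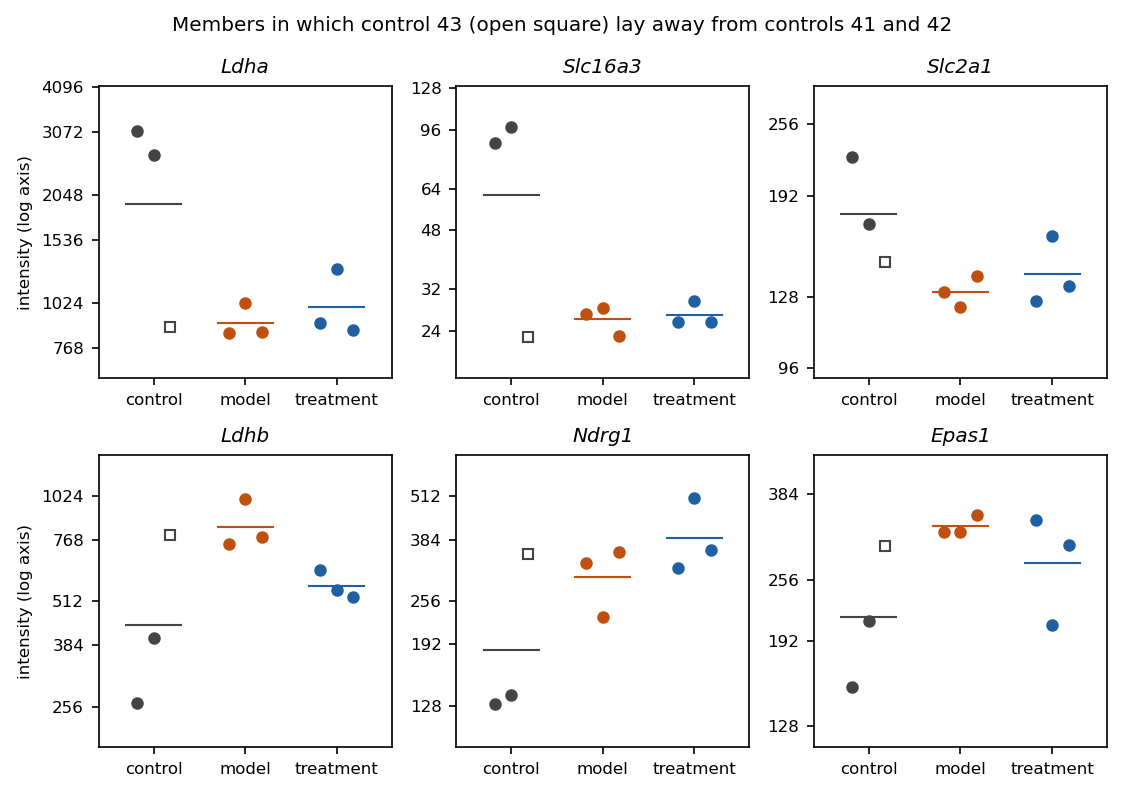
Intensities (y axis, log scale) of 6 genes in which control 43 (open square) was the lowest or highest control, by group (x axis). Points are arrays and lines are group means on the log2(intensity + 16) scale. Controls 41, 42 and 43 run in steps for Slc2a1, at 224.4, 171.8 and 147.4, and for Epas1, at 154.3, 210.3 and 300.8. For Ldha and Slc16a3 control 43 lies with the induced arrays, at 878.6 and 23.1, and for Ldhb and Ndrg1 likewise, at 791.8 and 348.9.

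Pyruvate dehydrogenase. Pdha1, the catalytic alpha subunit of the complex, measured 562.1, 686.2 and 677.7 in controls, 959.1, 921.4 and 1054.2 in model and 1118.7, 1074.0 and 1236.5 in treatment arrays. The 3 groups did not overlap, with controls lowest and treatment arrays highest. The log2 values were 9.36 ± 0.16, 9.96 ± 0.10 and 10.18 ± 0.10 (SD, n = 3). Pdha1 rose by 0.82 in treatment against control, a fold of 1.77 (SE 0.11, limma adjusted p = 0.0311), and differed by 0.60 in model against control (SE 0.11, adjusted p = 0.144). Leaving out single arrays moved the treatment value between 0.73 and 0.87, and it passed in 3 of those 9 fits (control 43, model 21 or model 23 left out). With a replicate block on the arrays' final digit it did not pass (adjusted p = 0.0552), nor with the 6 compared arrays alone (adjusted p = 0.0586). A second Pdha1 probe set read 100.3 to 130.4 in controls, 103.2 to 182.2 in model and 196.9 to 237.0 in treatment arrays.

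Pdhb, the beta subunit, stayed within 242.9 to 313.6 and differed by -0.05 and 0.03. Of the kinases that inactivate the complex, Pdk2 measured 87.7, 110.3 and 104.2 in controls, 165.3, 119.4 and 152.0 in model and 117.8, 136.9 and 146.5 in treatment arrays. All induced arrays lay above the controls, at 0.46 (SE 0.14, limma adjusted p = 0.281) and 0.36 (SE 0.14, adjusted p = 0.244), and neither comparison passed. Pdk4, the kinase known for its rise with fasting and glucocorticoids, measured 106.7, 223.2 and 92.9 in controls, 332.8, 328.3 and 204.9 in model and 170.1, 182.5 and 331.1 in treatment arrays. Control 42 lay inside both induced groups, and the log2 fold changes of 1.02 (SE 0.35, adjusted p = 0.334) and 0.67 (SE 0.35, adjusted p = 0.363) did not pass. A dimmer Pdk4 probe set, at 22.0 to 29.7, gave 0.02 and 0.15. Pdk1, the kinase known as a target of hypoxia-inducible factors, differed by 0.05 and 0.01.

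Gnpda1 encodes glucosamine-6-phosphate deaminase, which returns amino sugars to glycolysis as fructose-6-phosphate. It measured 62.6, 66.0 and 65.0 in controls, 130.5, 103.7 and 158.9 in model and 166.8, 198.4 and 208.7 in treatment arrays. The controls were tightly grouped, and the 3 groups did not overlap. The log2 values were 6.33 ± 0.03, 7.18 ± 0.27 and 7.69 ± 0.16 (SD, n = 3). Gnpda1 rose by 1.36 in treatment against control, a fold of 2.57 (SE 0.14, limma adjusted p = 0.0162), and differed by 0.85 in model against control (SE 0.14, adjusted p = 0.119). Leaving out single arrays moved the treatment value only between 1.30 and 1.45, and it passed in 4 of these 9 fits (control 43 or any 1 model array left out), with an adjusted p of at most 0.0856 in the others. Without control 43 the log2 fold change was also 1.36.

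Hypoxia sensing. Hif1a and Epas1 are regulated mainly through protein stability, which arrays do not measure. Hif1a transcripts stayed within 409.0 to 550.3 and differed by 0.09 and 0.05. Epas1 measured 154.3, 210.3 and 300.8 in controls, 321.4, 321.4 and 348.1 in model and 340.7, 206.9 and 301.9 in treatment arrays. Model arrays lay above all controls (0.59, SE 0.24, limma adjusted p = 0.382), and treatment 32 lay below control 42. Treatment 32 also had the lowest endothelial sum and control 43 the highest, and the part of this in the Epas1 values was not tested. Without control 43 Epas1 passed in model against control (0.82, adjusted p = 0.0404). Egln1, the main oxygen-sensing prolyl hydroxylase, measured 137.7, 153.0 and 190.8 in controls and 96.2, 122.4 and 108.1 in treatment arrays, with no overlap (-0.49, SE 0.18, adjusted p = 0.231). Its dimmer probe set, at 27.0 to 42.1, gave 0.17 in that comparison. Egln3, which hypoxia induces, was dim, with 55.8 in control 42 and 11.1 to 18.5 in all other arrays.

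Hypoxia-responsive genes. Ndrg1, a stress and differentiation gene that hypoxia induces, measured 129.5 and 137.3 in controls 41 and 42 and 348.9 in control 43. It measured 329.2, 230.3 and 352.9 in model and 318.8, 505.0 and 358.6 in treatment arrays. With all controls it differed by 0.65 (SE 0.36, limma adjusted p = 0.466) and 1.0 (SE 0.36, adjusted p = 0.223), and without control 43 by 1.08 (adjusted p = 0.0239) and 1.43 (adjusted p = 0.0118). A dimmer Ndrg1 probe set, at 32.1 to 59.9, gave -0.07 and 0.25. P4ha1, a collagen prolyl hydroxylase subunit, measured 204.9, 278.5 and 188.2 in controls, 193.6, 271.8 and 176.8 in model and 152.3, 159.6 and 131.1 in treatment arrays, the treatment arrays lying below all others. Bnip3, a mitophagy receptor, spanned 86.3 to 167.8, and Ddit4, an inhibitor of the growth kinase mTOR, 102.7 to 237.6, each with overlapping groups.

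Without control 43, 10 of the 37 genes passed in model against control, 5 higher (Ldhb, Pdha1, Gnpda1, Epas1 and Ndrg1) and 5 lower (Slc2a1, Slc2a3, Pgk1, Ldha and Slc16a3). That is 27.0% of the genes, where 12.6% of all genes tested passed in the same fit, 5.7% higher and 6.92% lower. In that fit Slc2a3 was at -1.77 (limma adjusted p = 0.000409), Gnpda1 at 0.86 (adjusted p = 0.0188) and Pdha1 at 0.64 (adjusted p = 0.0176). With control 43 left out, 6 passed in treatment against control, Pdha1, Gnpda1 and Ndrg1 higher and Slc2a3, Ldha and Slc16a3 lower, which is 16.2% beside 6.56% of all genes, 1.49% higher and 5.08% lower. Controls 41 and 42 both lay above the other 7 arrays in 8 genes (21.6%, beside 13.5% of all genes) and below them in 4 (10.8%, beside 10%). Control 43 lay nearer to the mean of the induced arrays than to the mean of controls 41 and 42 in 27 of 37 genes, or 73.0%, beside 66.6% of all genes. The genes outside these 27 were Slc2a3, Pfkp, Aldoc, Pfkfb2, Pgk1, Pdha1, Pdk2, Pdk4, Gnpda1 and Egln1. Slc2a3, Gnpda1, Pdha1, Pgk1 and Pdk2 had been picked above for induced arrays apart from all 3 controls. Their place outside the 27 was thus largely set by that choice, though Pfkfb4, picked in the same way, was among the 27. Control 43 carries its group's label and no source gives a reason to leave it out.

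**Figure D4:**
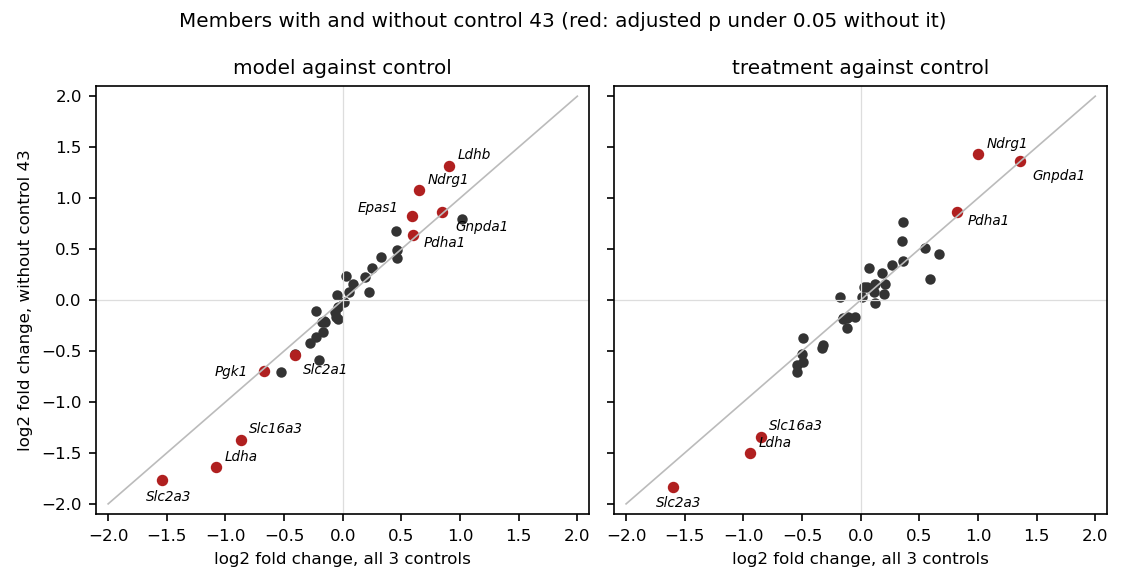
Log2 fold changes of the 37 genes with all 3 controls (x axis) and without control 43 (y axis) in model against control and treatment against control; the grey line marks equal values, and red points passed at an adjusted p under 0.05 without control 43. Ldha, Slc16a3, Ldhb and Ndrg1 lie farther from 0 without control 43, while Gnpda1 and Pdha1 lie near the line.

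Treatment against model asked whether electroacupuncture changed the induced uterus. By limma 0 of the 37 genes passed, as did 0.0% of all genes tested. At an unadjusted p under 0.05 there were 3 genes, or 8.11%, beside 14.7% of all genes. The 37 values were 18 positive and 19 negative, where all genes had 4269 positive and 6704 negative. After quantile normalization the 37 values were 25 positive and 12 negative, with a median of 0.054 beside 0.009 for all genes. Groups did not overlap for 6 of the 37 genes, or 16.2%, beside 28.0% of all genes.

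Pfkfb3, the Pfkfb enzyme that most favours glycolysis, had the smallest p of the set. It measured 39.2, 39.4 and 34.3 in controls, 29.6, 32.4 and 32.1 in model and 45.4, 46.7 and 45.4 in treatment arrays. Treatment arrays lay above and model arrays below the controls, with a log2 difference of 0.38 between them (SE 0.07, unadjusted p = 0.000311, limma adjusted p = 0.286). A second, dimmer Pfkfb3 probe set gave -0.22 for the same comparison, with 34.6, 28.4 and 19.6 in model and 21.2, 19.3 and 22.4 in treatment arrays, so the 2 probe sets disagreed. The mean of both gave 0.08.

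Gnpda1 differed by 0.51 between treatment and model arrays (SE 0.14, limma adjusted p = 0.286) and Pdha1 by 0.22 (SE 0.11, adjusted p = 0.372), the treatment arrays being higher without overlap in both. P4ha1 differed by -0.47 (SE 0.19, adjusted p = 0.319), Slc16a1 by 0.80 (SE 0.38, adjusted p = 0.367) and Ldhb by -0.55 (SE 0.33, adjusted p = 0.451), also without overlap. Slc2a3 differed by -0.06 (SE 0.19), and by 0.01 after quantile normalization.

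**Figure D5:**
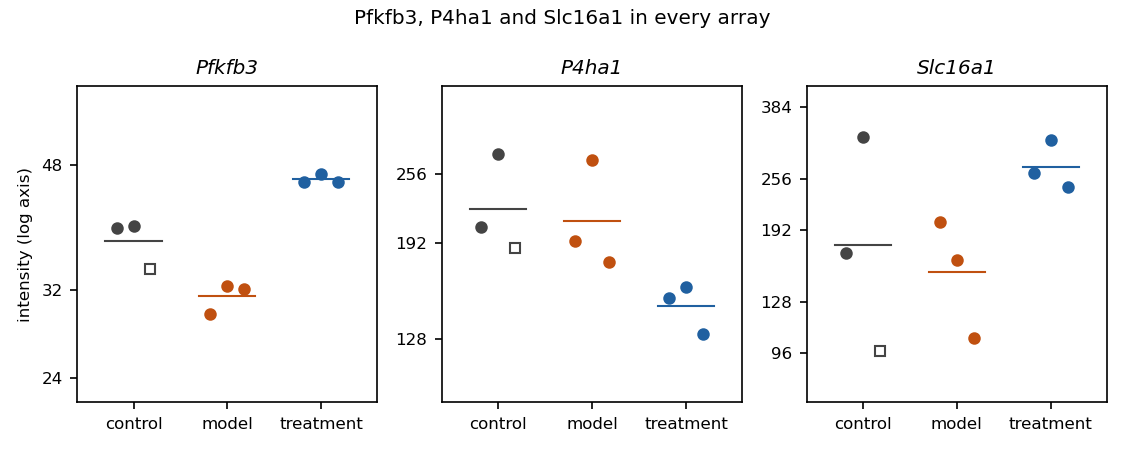
Intensities (y axis, log scale) of Pfkfb3, P4ha1 and Slc16a1 by group (x axis); points are arrays, the open square is control 43, and lines are group means on the log2(intensity + 16) scale. Treatment arrays do not overlap model arrays in any of these panels, and the 3 treatment arrays of Pfkfb3 lie between 45.4 and 46.7.

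The neighbouring pathways were read from lists of other genes. Of 17 further glycolysis and pyruvate genes, 5 of gluconeogenesis, 9 of the pentose phosphate pathway, 12 of glycogen metabolism, 9 of the hexosamine pathway, 18 of the tricarboxylic acid cycle and 23 other hypoxia-responsive genes tested, 0 passed by limma in any of the 3 comparisons. Of 6 genes of fructose and polyol metabolism 1 passed, in treatment against control. That gene, Akr1b1, is aldose reductase, which turns glucose into sorbitol. It measured 1759.6, 1316.8 and 1485.1 in controls, 988.6, 654.4 and 646.3 in model and 492.4, 505.6 and 477.5 in treatment arrays, and fell by 1.59 in treatment against control (SE 0.17, adjusted p = 0.0176). Its dimmer probe set, at 17.2 to 23.8, gave 0.07. Sord, which carries sorbitol on to fructose, measured 101.0 to 118.4 in model and 46.8 to 70.5 in treatment arrays, a difference of -0.78 (SE 0.15, adjusted p = 0.286). Without control 43, Akr1b1 and Akr1b8 passed as lower in model and in treatment against control, and Sord as higher in model against control (0.63, adjusted p = 0.0395).

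Beyond pyruvate dehydrogenase, Idh2, the mitochondrial isocitrate dehydrogenase that makes NADPH, measured 547.6, 641.1 and 1050.7 in controls and 1173.3 to 1663.2 in the 6 induced arrays. Its log2 fold changes were 1.02 (SE 0.22, limma adjusted p = 0.174) and 0.80 (SE 0.22, adjusted p = 0.138). Without control 43 it passed in both comparisons, at 1.29 (adjusted p = 0.00291) and 1.07 (adjusted p = 0.00482), the only gene of its list to do so in either. Suclg2, a subunit of succinyl-CoA ligase, differed by 0.65 in treatment against control (SE 0.13, adjusted p = 0.0859). The median of the tricarboxylic acid cycle list was 0.024 in model and 0.038 in treatment against control, beside 0.016 and -0.037 for all genes.

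The pentose phosphate genes, which branch off glucose-6-phosphate to make NADPH and ribose, had a median of -0.375 in model against control and -0.063 in treatment against control, and of -0.468 and -0.441 without control 43. Tkt, transketolase, measured 685.0, 523.6 and 348.8 in controls, 300.2 to 336.0 in model and 256.1 to 282.3 in treatment arrays, with log2 fold changes of -0.65 (SE 0.21, limma adjusted p = 0.307) and -0.85 (SE 0.21, adjusted p = 0.123). Without control 43, 5 of the 9 passed in model against control, all lower (Pgd, Rpe, Rpia, Tkt and Taldo1), and Tkt and Taldo1 passed as lower in treatment against control. Over all genes in those fits 12.6% and 6.56% passed, 6.92% and 5.08% lower. Gaa, the lysosomal enzyme that breaks down glycogen, measured 162.3 to 186.6 in controls, 255.8 to 274.0 in model and 204.0 to 239.7 in treatment arrays without overlap between the groups (0.57, SE 0.09, adjusted p = 0.119, and 0.36, SE 0.09, adjusted p = 0.125). Without control 43 Gaa passed in both, at 0.62 (adjusted p = 0.0103) and 0.42 (adjusted p = 0.0427). In model against control without that array, Pygm of the glycogen list also passed as higher and Amdhd2 and Gne of the hexosamine list as lower.

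The 23 other hypoxia-responsive genes had 8 positive and 15 negative values in model and in treatment against control, with medians of -0.129 and -0.089 beside 0.016 and -0.037 for all genes. Among them, Bhlhe40, a transcriptional repressor, measured 86.3 and 67.6 in controls 41 and 42, 17.2 in control 43 and 9.98 to 32.6 in induced arrays, the same order as Ldha and Slc16a3. It differed by -1.09 (SE 0.37, adjusted p = 0.331) in model and -0.65 (SE 0.37, adjusted p = 0.394) in treatment against control by limma. Without control 43 it passed in both, at -1.58 (adjusted p = 0.00356) and -1.15 (adjusted p = 0.0102). Car9, a carbonic anhydrase, then also passed as lower in both, and Vegfa, the vascular growth factor, as higher in model against control. Car9 was dim, at 23.9 and 22.4 in controls 41 and 42 and 8.96 to 17.9 in the other arrays, around the filter threshold.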

How the data were processed

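The values analysed were the normalized intensities the authors deposited, 1 per probe set and array on a linear scale. Per the submitters' processing notes they come from MAS5, while the settings, target scaling and detection of that step are not stated in any source used here. The 57 control probe sets were left out of 31099, and symbols came from the platform annotation, updated through a RefSeq gene table. Tests ran on log2(intensity + 16), a scale that understates changes of dim genes. Probe sets at or above the 40th percentile of their array in at least 3 arrays were kept, and each gene was read from its probe set of highest mean. Contrasts of 1 fit to all 9 arrays were tested with limma 3.58.1 in R 4.3.3 (variance trend, two-sided, Benjamini-Hochberg over 10973 genes). The number of arrays limits the precision. The fit was tested on simulated data. Genes, lists and named genes (all that passed and the 6 with the smallest p a comparison) were chosen with earlier results of these data known. Figures used matplotlib 3.10.9.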

Additional observations from a re-analysis of the deposited data

How the results depend on the processing

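In treatment against model, 0 of the 37 genes passed under every alternative tried. In model against control the count of 0 became 1 (Slc2a3) at an adjusted p under 0.10 and ranged from 0 to 10 with single arrays left out. In treatment against control the count of 3 became 1 (Gnpda1) with the 6 compared arrays alone and ranged from 0 to 6 with single arrays left out, and it stayed within 1.5 times under other pseudocounts (1 or 64), scalings, filters, variance trends and treatments of multiple probe sets. Pfkfb3 in treatment against control reversed to -0.03 as the mean of its probe sets, against 0.21. Quantile normalization turned the sign of small values, among them Slc2a3 in treatment against model (-0.06 to 0.01) and Eno1 in treatment against control (-0.05 to 0.03). With a replicate block on the final digit of each array's number, 2 genes passed in treatment against control, Pdha1 being lost. The labels do not say that this digit pairs arrays, and deviations of arrays with the same digit correlated at -0.408 to 0.311. Values near the filter threshold, as in Egln3, Eno3 and Car9, are limited by an unknown background.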
